A study of Mus musculus with 16 samples.

Results

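Glycerol injury was followed in kidneys from which tubule cells had already lost Vhl. The comparison sets the 5 arrays titled VHL-KO/AKI against the 3 titled VHL-KO, 8 of the 16 arrays of the series, and was read across 19938 genes. Members were chosen by their titles alone, and each gene is read from 1 row of the table. VHL-KO/AKI mice received doxycycline (0.1 mg for each 10 g of weight) 4 days before they were killed, and 50% glycerol at 0.05 ml per 10 g into a hind limb muscle. As the labels time it around the injection, they had no drinking water between 20 h before and 24 h after the glycerol. VHL-KO mice received the same doxycycline and no glycerol. AKI mice (n = 5) received glycerol without doxycycline and control mice (n = 3) neither, and both are used here only beside the main comparison.

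Every mouse carried transgenes that let doxycycline delete Vhl in renal tubules, also those without doxycycline, whose genotype is labelled wt. The mouse line known for this design drives its doxycycline-dependent activator from the Pax8 promoter, so endothelium, interstitium and blood cells keep the gene. No group had doxycycline without the deletion, and the labels do not state whether the uninjured groups also went without water, so any part of water withdrawal in the differences was not tested. How many hours passed between glycerol and harvest is not stated in the labels. Total RNA came from pieces of whole kidney, and in such bulk tissue fewer cells of a type and less RNA per cell cannot be told apart.

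Glycerol injected into muscle breaks muscle fibres down, and the freed myoglobin is filtered and taken up by the proximal tubule, where its haem is degraded by haem oxygenase and its iron is stored in ferritin. Injured tubule cells switch on repair and stress programmes, among them Havcr1 and Lcn2, and lose transporters of their segment. The von Hippel-Lindau protein marks the alpha subunits of hypoxia-inducible factor (HIF) for destruction, so deleted tubule cells run the HIF programme before the injury starts.

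Each value is a level on the log2 scale of the array, and a difference is the mean of VHL-KO/AKI minus the mean of VHL-KO, with the standard error (SE) of a limma fit over all 16 arrays. The call threshold was an adjusted p under 0.05 (Benjamini-Hochberg, over all 19938 genes), and "rose" or "fell" is used of called genes. Array medians lay between 5.93 and 5.97 in VHL-KO/AKI and between 5.99 and 6.03 in VHL-KO. The labels call the samples biological replicates, 1 array each. As a check of the labelled tissue, the mean level of 28 proximal tubule transport genes lay between 9.99 and 10.67 in VHL-KO/AKI and between 10.95 and 11.19 in VHL-KO, and the mean of 10 skeletal muscle genes between 5.02 and 5.09 in VHL-KO/AKI and between 4.91 and 5.06 in VHL-KO. Vhl itself read 6.41, 6.35, 6.52, 6.66 and 6.54 in VHL-KO/AKI kidneys, against 6.70, 6.62 and 6.64 in VHL-KO kidneys, and the groups overlapped (difference -0.15, adjusted p = 0.217). Where the probes of Vhl lie relative to the deleted part is not known here, so this level does not check the deletion.

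Sex-linked transcripts divided the same arrays in the same place. Xist, the RNA that coats the inactive X chromosome, read 4.30, 4.38, 4.49, 4.42 and 4.35 in VHL-KO/AKI kidneys, against 11.45, 11.32 and 11.47 in VHL-KO kidneys. Averaged over Uty, Eif2s3y and Kdm5d, Y-linked signal ran between 7.77 and 8.23 in VHL-KO/AKI and between 4.81 and 4.88 in VHL-KO. Mice of either sex entered the study and no array's sex is labelled, so injury and sex-linked signal cannot be told apart in these 8 arrays. Control 3 is an uninjured array with both signals (Xist 10.23, Y-linked mean 7.43). Its difference from the mean of controls 1 and 2, a description of single arrays that was chosen after the data were seen, exceeded 50% of the injury difference in 328 of the 2705 called genes (12.1%). For the genes that rose at least 2-fold it did so in 43 of 217 (19.8%), and for those that fell at least 2-fold in 9 of 230 (3.9%). Control 3 itself differed by -0.87 for Xist, 12.4% of its injury difference, and by 3.60 for Uty, 82.2%. A small share among falls therefore does not tell whether they follow sex-linked signal. In a limma fit with sex-linked level added as a covariate, whose coefficient rests mainly on control 3, 0 genes were called and 359 had an unadjusted p under 0.05.

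The comparison asked how a kidney with an active HIF programme in its tubules responds to muscle breakdown. Of 19938 genes 2705 were called, 13.6% of those tested. They comprised 929 that rose (4.66%) and 1776 that fell (8.91%), with a median difference over all genes of -0.01. At least 2-fold changes were met by 217 that rose and 230 that fell. The balance depended on scaling: 34.3% of calls were higher as deposited, 59.6% once array medians were set equal (1700 higher, 1151 lower), 47.1% after quantile scaling and 48.3% after cyclic loess scaling. The groups did not overlap in any array for 4847 genes (24.3%). The count of calls fell to 1683 without VHL-KO 3 and to 1754 without VHL-KO 1, and it rose to 3910 without AKI 4, which enters only the shared spread.

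The 5 injured animals spread more widely than the 3 uninjured ones. On the first principal component of the 8 arrays, which held 64.7% of the variance, VHL-KO/AKI 1 to 5 lay at 11.5, 19.5, 10.2, 26.4 and 36.0, against -35.6, -33.7 and -34.3 for VHL-KO 1 to 3. VHL-KO/AKI 5 lay farthest from the uninjured arrays and VHL-KO/AKI 3 and 1 nearest. The same array order recurs in many of the genes below.

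Sex-linked genes and the listed sex-biased genes, among them the largest rise (Acsm3, 6.42) and the largest fall (Xist, -7.02) named here, are described with their lists further on. Outside them, and with predicted or numbered names left out, the largest rises included genes of the injured tubule and of acute phase proteins. Havcr1, the injury receptor also called kidney injury molecule 1, read 12.24, 12.50, 11.83, 12.64 and 12.78 in VHL-KO/AKI kidneys, against 6.74, 6.15 and 6.33 in VHL-KO kidneys. That is a 63.7-fold rise (difference 5.99, SE 0.65, adjusted p = 5.92e-05), with every injured array above every uninjured array. Krt20, an intermediate filament of barrier epithelia, read 9.37, 10.49, 9.41, 10.85 and 11.21 in VHL-KO/AKI kidneys, against 4.64, 4.71 and 4.62 in VHL-KO kidneys, a rise of 5.60 (SE 0.54, adjusted p = 2.88e-05). The 3 uninjured arrays lay close together, and arrays 4 and 5 were the highest of the injured ones. Lcn2, the iron carrier lipocalin 2, read 12.81, 13.33, 12.60, 13.42 and 13.60 in VHL-KO/AKI kidneys, against 8.80, 9.26 and 8.69 in VHL-KO kidneys, and rose 18.9-fold (adjusted p = 1.38e-07). Control 3 differed from controls 1 and 2 by 0.18 for Havcr1, 0.09 for Krt20 and 0.17 for Lcn2.

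Secreted and barrier proteins followed. Serpina3n, a protease inhibitor of the acute phase, read 9.67, 10.80, 9.81, 11.21 and 12.01 in VHL-KO/AKI kidneys, against 6.16, 5.57 and 6.23 in VHL-KO kidneys, without overlap (difference 4.72, SE 0.42, adjusted p = 2.06e-05). Lrg1, a leucine-rich plasma glycoprotein, read 9.53, 10.46, 9.50, 10.86 and 11.04 in VHL-KO/AKI kidneys, against 5.91, 6.10 and 6.72 in VHL-KO kidneys, also without overlap (4.03, adjusted p = 2.71e-05). Sprr2f, a small proline-rich protein of cornified epithelia, read 9.02, 10.13, 7.87, 10.82 and 11.54 in VHL-KO/AKI kidneys, against 5.84, 5.80 and 5.95 in VHL-KO kidneys. Array 3 stood lowest and array 5 highest for this gene, and it rose by 4.01 (SE 0.87, adjusted p = 0.00682). The cystine importer Slc7a11, which feeds glutathione synthesis, read 7.56, 8.06, 6.56, 8.78 and 9.23 in VHL-KO/AKI kidneys, against 4.55, 4.80 and 4.52 in VHL-KO kidneys, a rise of 3.41 (adjusted p = 0.00322), with the same array lowest and the same array highest.

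A further set of large rises was shared in part by control 3. Timd2, which in the mouse encodes a receptor for ferritin, read 10.39, 10.46, 10.24, 10.58 and 10.90 in VHL-KO/AKI kidneys, against 4.79, 5.07 and 5.19 in VHL-KO kidneys (difference 5.5, adjusted p = 3.89e-05), and control 3 differed from controls 1 and 2 by 2.73. Pzp, a broad protease inhibitor of plasma, read 9.55, 9.19, 9.49, 9.24 and 9.10 in VHL-KO/AKI kidneys, against 4.64, 4.89 and 4.87 in VHL-KO kidneys (difference 4.51, adjusted p = 0.00104), and control 3 differed by 4.52. Cyp4a12b, a fatty acid hydroxylase, read 12.59, 12.42, 12.69, 12.39 and 12.30 in VHL-KO/AKI kidneys, against 8.33, 9.49 and 8.80 in VHL-KO kidneys (difference 3.60, adjusted p = 0.00242), and control 3 differed by 4.05. For Pzp and Cyp4a12b the uninjured control 3 stood at least as far from its group as the injured arrays stood from VHL-KO.

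**Figure D1:**
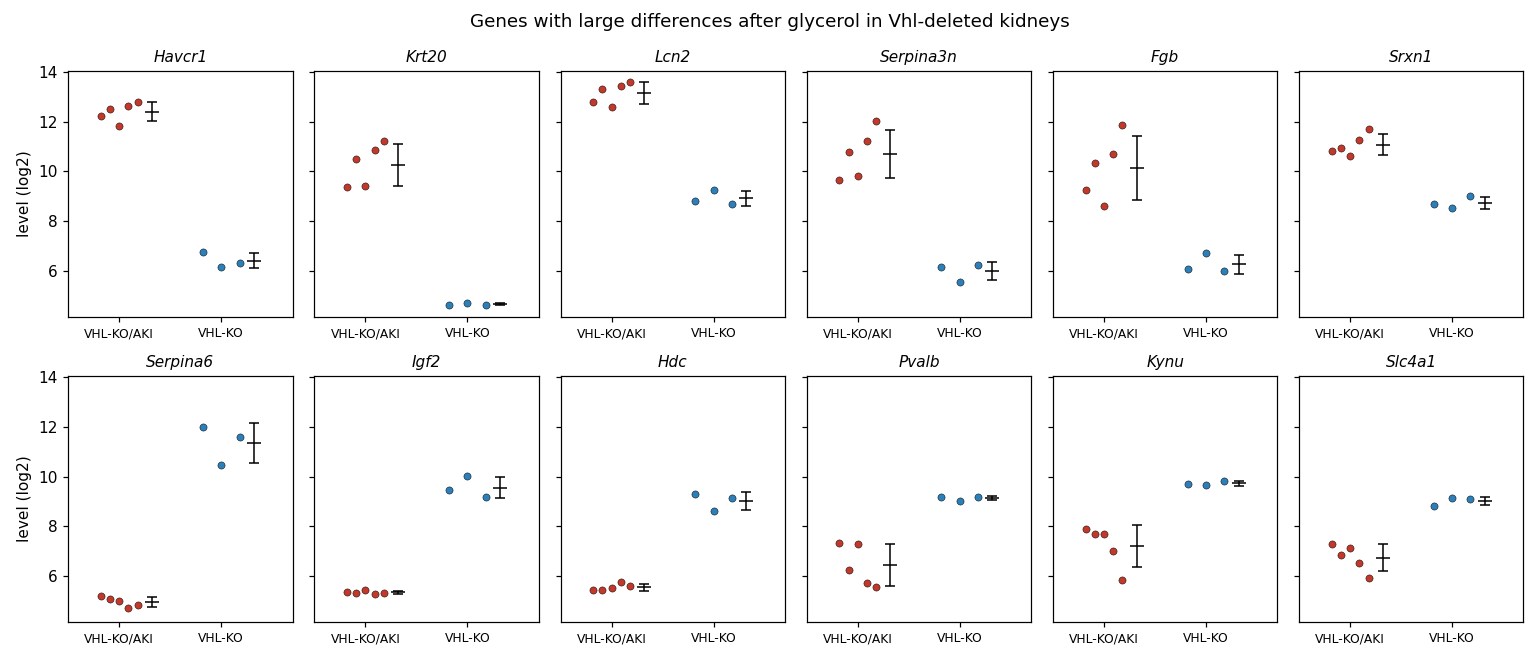
Levels (log2, y axis) of 12 genes with large differences in the 5 VHL-KO/AKI arrays (red) and the 3 VHL-KO arrays (blue), with the mean and SD of each group beside the points. The groups do not overlap in any of the 12 genes, and the VHL-KO/AKI points of Krt20, Serpina3n and Fgb spread more widely than those of Igf2 or Hdc.

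With the same genes left out, the largest falls included hormone carriers and tubule enzymes. Serpina6, which encodes the corticosteroid-binding globulin, read 5.20, 5.09, 5.00, 4.70 and 4.83 in VHL-KO/AKI kidneys, against 11.99, 10.46 and 11.61 in VHL-KO kidneys. It was 83.6-fold lower (difference -6.39, SE 0.44, adjusted p = 2.03e-06), and control 3 differed from the other controls by -0.30. Xist differed by only -0.87 in that array, so a small value there does not separate a fall from sex-linked signal. Igf2, an insulin-like growth factor, read 5.36, 5.32, 5.42, 5.28 and 5.33 in VHL-KO/AKI kidneys, against 9.48, 10.03 and 9.17 in VHL-KO kidneys. It fell by 4.22 (SE 0.23, adjusted p = 1.38e-07), the injured arrays lay close together, and control 3 differed by -1.14. Hdc, which makes histamine from histidine, read 5.42, 5.44, 5.51, 5.78 and 5.61 in VHL-KO/AKI kidneys, against 9.30, 8.60 and 9.14 in VHL-KO kidneys, again without overlap (difference -3.46, adjusted p = 6.63e-05).

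Further falls concerned tryptophan and hormone metabolism. Kynu, an enzyme of tryptophan breakdown, read 7.88, 7.68, 7.69, 6.99 and 5.84 in VHL-KO/AKI kidneys, against 9.71, 9.65 and 9.84 in VHL-KO kidneys, lowest in array 5 (difference -2.52, adjusted p = 0.000983). Acmsd, which steers tryptophan carbon away from NAD, read 10.75, 10.16, 10.18, 9.55 and 7.88 in VHL-KO/AKI kidneys, against 11.88, 11.90 and 12.03 in VHL-KO kidneys, and array 5 again stood lowest. Its fall of 2.23 (adjusted p = 0.0338) was lost without VHL-KO/AKI 4 or 5 or VHL-KO 1, 2 or 3 (adjusted p up to 0.104). Dio1, which activates thyroid hormone, read 6.76, 6.42, 7.0, 6.46 and 6.59 in VHL-KO/AKI kidneys, against 8.73, 9.21 and 9.27 in VHL-KO kidneys (difference -2.42, adjusted p = 0.00237). Rdh16f2, a retinol dehydrogenase family member, averaged 9.59 ± 0.66 in VHL-KO/AKI kidneys and 12.07 ± 0.19 in VHL-KO kidneys (SD, n = 5 and 3) and fell by 2.49 (adjusted p = 0.00123).

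Secreted peptides and an IGF carrier also fell. Igfbp1, which binds insulin-like growth factors, read 7.21, 7.16, 8.93, 7.03 and 7.61 in VHL-KO/AKI kidneys, against 10.51, 8.95 and 10.42 in VHL-KO kidneys, and array 3 came close to the lowest uninjured array without crossing it (difference -2.37, adjusted p = 0.00443). Wfdc16, a whey acidic protein domain gene, averaged 4.99 ± 0.09 in VHL-KO/AKI kidneys and 7.92 ± 0.68 in VHL-KO kidneys (difference -2.93, adjusted p = 7.92e-05). Defb19, a defensin, read 9.98, 8.64, 9.19, 8.21 and 7.70 in VHL-KO/AKI kidneys, against 11.09, 10.56 and 11.22 in VHL-KO kidneys. Its fall (-2.21, adjusted p = 0.0131) was lost without VHL-KO 1 or 3 (adjusted p up to 0.0582).

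Of 18 tubular injury genes 10 rose, 0 fell and 8 missed the threshold (differences from -0.48 to 5.99), with a median difference of 1.22 against -0.01 over all genes, and the list median of control 3 against controls 1 and 2 was -0.05. Beside Havcr1, Lcn2 and Sprr2f, Akr1b8, an aldo-keto reductase, read 8.79, 9.21, 9.10, 9.70 and 9.65 in VHL-KO/AKI kidneys, against 6.62, 6.34 and 6.4 in VHL-KO kidneys (difference 2.84, SE 0.49, adjusted p = 0.00174). The list mean, set relative to the VHL-KO mean, was 1.38, 1.79, 1.07, 1.94 and 1.99 in VHL-KO/AKI 1 to 5, against 0.13, -0.07 and -0.06 in VHL-KO 1 to 3. Of 7 epithelial keratins 3 rose and 0 fell (median 0.59). Krt8, the keratin of simple epithelia, averaged 10.96 ± 0.19 in VHL-KO/AKI kidneys and 9.70 ± 0.17 in VHL-KO kidneys and rose by 1.26 (adjusted p = 3.56e-05). Krt19 rose by 1.10 (adjusted p = 0.00865), a call lost without VHL-KO 2 (adjusted p = 0.0545).

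Sprr2g and Sox9 were among the called genes with a wide spread over the injured animals. Sox9, a transcription factor of tubule repair, read 7.32, 8.07, 6.98, 8.96 and 9.74 in VHL-KO/AKI kidneys, against 6.07, 6.4 and 6.31 in VHL-KO kidneys. Arrays 1 and 3 stood nearest to the uninjured kidneys and arrays 4 and 5 farthest, and the rise (1.95, SE 0.47, adjusted p = 0.0129) was lost without VHL-KO 1 (adjusted p = 0.0539). Sprr2g read 7.47, 8.12, 6.69, 9.45 and 10.55 in VHL-KO/AKI kidneys, against 5.63, 5.77 and 5.94 in VHL-KO kidneys, with the same order of arrays, and its rise (2.68, adjusted p = 0.0143) was lost without VHL-KO 1 (adjusted p = 0.054). The SD over the 5 injured arrays was 1.55 for Sprr2g, 1.45 for Sprr2f, 1.28 for Fgb, 1.14 for Sox9, 1.10 for Acmsd and 1.05 for Slc7a11, the 6 largest among called genes that the naming rule admits.

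The acute phase list holds plasma proteins whose level moves in inflammation. Of its 12 acute phase genes 5 rose and 0 fell (median 0.51), and apart from Serpina3n and Hp they were the chains of fibrinogen, the clotting protein. Fgb read 9.24, 10.35, 8.59, 10.70 and 11.88 in VHL-KO/AKI kidneys, against 6.07, 6.71 and 5.99 in VHL-KO kidneys (difference 3.89, SE 0.88, adjusted p = 0.00909). Fgg read 10.56, 11.37, 10.22, 11.60 and 12.59 in VHL-KO/AKI kidneys, against 6.93, 7.87 and 7.12 in VHL-KO kidneys (difference 3.96, adjusted p = 0.00246). Fga averaged 8.38 ± 0.74 in VHL-KO/AKI kidneys and 5.93 ± 0.06 in VHL-KO kidneys (difference 2.45, adjusted p = 0.00424). All 3 chains were lowest in VHL-KO/AKI 3 and highest in VHL-KO/AKI 5. The list mean relative to VHL-KO was 1.07, 1.63, 1.14, 1.76 and 2.06 in VHL-KO/AKI 1 to 5.

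**Figure D2:**
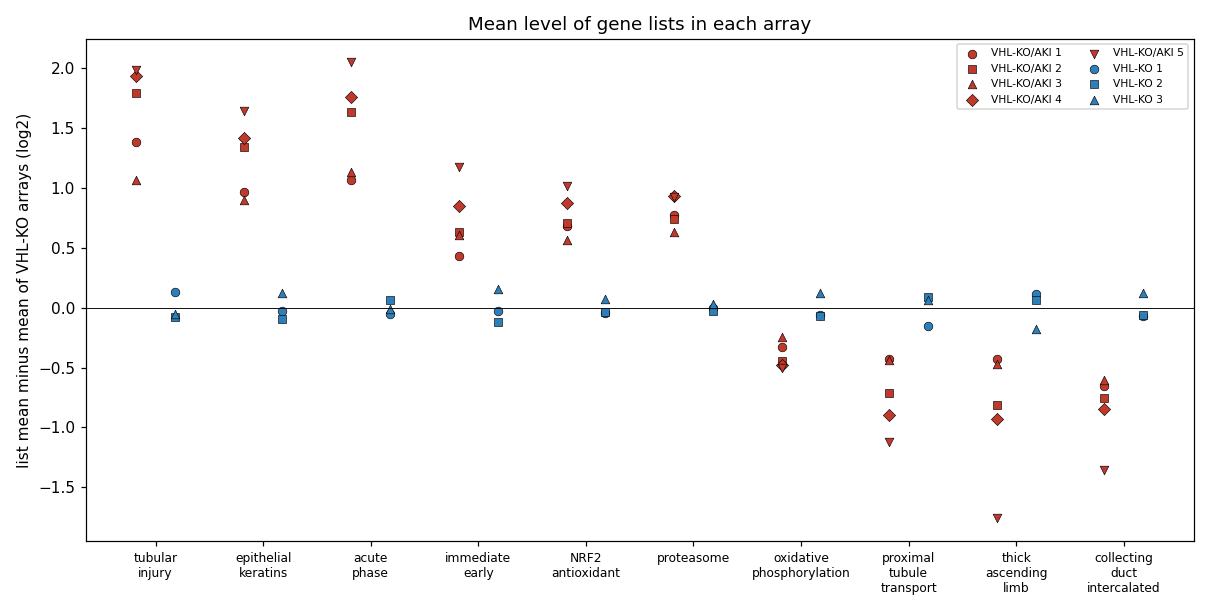
Mean level of 10 gene lists in each array, minus the mean of the 3 VHL-KO arrays (log2, y axis), for VHL-KO/AKI 1 to 5 (red) and VHL-KO 1 to 3 (blue), with a marker shape per replicate number. VHL-KO/AKI 3 or 1 lies nearest to the uninjured arrays and array 5 or 4 farthest in each of the 10 lists, from the acute phase mean of 2.06 to the thick ascending limb mean of -1.76 in VHL-KO/AKI 5.

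Haem and iron genes were called in both directions. Of 19 haem and iron genes 5 rose, 1 fell and 13 did not pass (median 0.17). Blvrb, which reduces biliverdin after haem is opened, read 10.35, 10.25, 10.18, 10.26 and 10.30 in VHL-KO/AKI kidneys, against 8.13, 8.25 and 8.29 in VHL-KO kidneys (difference 2.05, SE 0.41, adjusted p = 0.00461), a tight rise in all 5 animals. Hmox1, the inducible haem oxygenase, read 10.43, 10.83, 10.45, 11.20 and 12.01 in VHL-KO/AKI kidneys, against 9.68, 9.39 and 9.93 in VHL-KO kidneys. It rose by 1.32 (adjusted p = 0.0132) without overlap, and that call was lost without VHL-KO 2 (adjusted p = 0.0646). Hp, the haemoglobin scavenger haptoglobin, averaged 6.79 ± 0.69 in VHL-KO/AKI kidneys and 5.15 ± 0.26 in VHL-KO kidneys (difference 1.65, adjusted p = 0.00264). Tfrc, the receptor that brings in transferrin iron, rose by 1.04 (adjusted p = 0.0136), a call lost without VHL-KO 2 (adjusted p = 0.0548). A pair of further members, chosen after their values were seen, complete the calls. Ftl1, the ferritin light chain, rose by 0.31 (adjusted p = 0.0282), lost without VHL-KO/AKI 4 or 5 or VHL-KO 1 or 2 (adjusted p up to 0.123) or after cyclic loess scaling. Slc40a1, the iron exporter ferroportin, averaged 8.77 ± 0.14 in VHL-KO/AKI kidneys and 9.63 ± 0.14 in VHL-KO kidneys and fell by 0.87 (adjusted p = 0.0021).

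NRF2 is the factor that answers electrophiles and oxidants. Of 19 antioxidant genes under its control 11 rose, 1 fell and 7 missed the threshold, with a median of 0.48. Srxn1, which repairs overoxidised peroxiredoxins, read 10.83, 10.96, 10.63, 11.28 and 11.70 in VHL-KO/AKI kidneys, against 8.70, 8.52 and 9.0 in VHL-KO kidneys (difference 2.34, SE 0.30, adjusted p = 0.000196). Nqo1, a quinone reductase, read 10.34, 10.45, 10.55, 10.57 and 10.70 in VHL-KO/AKI kidneys, against 8.46, 8.32 and 8.36 in VHL-KO kidneys (difference 2.14, SE 0.21, adjusted p = 2.88e-05). Both separated the groups in every array. Ugdh, which makes UDP-glucuronate, averaged 11.40 ± 0.27 in VHL-KO/AKI kidneys and 9.95 ± 0.15 in VHL-KO kidneys (difference 1.45, adjusted p = 0.000345). The gene that fell, chosen after its value was seen, was the glutathione transferase Gsta4 (-0.89, adjusted p = 0.00757), lost without VHL-KO 3 (adjusted p = 0.0505), and control 3 differed by -0.78.

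Metallothioneins, small proteins that hold zinc and copper, rose in part. Of 8 genes of this list, which includes zinc carriers, 4 rose and 0 fell (median 0.52). Mt2 read 12.89, 13.09, 12.85, 13.06 and 13.27 in VHL-KO/AKI kidneys, against 12.33, 11.81 and 12.41 in VHL-KO kidneys (difference 0.85, SE 0.12, adjusted p = 0.000358). Mt1 averaged 12.11 ± 0.27 in VHL-KO/AKI kidneys and 11.27 ± 0.23 in VHL-KO kidneys (difference 0.85, adjusted p = 0.00167). Slc39a14, a zinc and iron importer, read 8.63, 8.58, 8.09, 8.82 and 9.55 in VHL-KO/AKI kidneys, against 7.52, 7.65 and 8.11 in VHL-KO kidneys, and its groups overlapped. Its rise (0.97, adjusted p = 0.0159) was lost without VHL-KO 1 or 2 (adjusted p up to 0.0797). Mt3 rose by 0.36 (adjusted p = 0.0292), a call lost without VHL-KO/AKI 1 or 5 or VHL-KO 1 or 3 (adjusted p up to 0.171).

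Chaperones, which keep proteins folded under stress, rose in the majority of members. Of 13 heat shock genes 7 rose and 0 fell (median 0.58), and without VHL-KO 2 the count was 4. Hspb1, a small chaperone, read 11.56, 11.51, 11.31, 11.76 and 11.93 in VHL-KO/AKI kidneys, against 9.16, 8.25 and 9.22 in VHL-KO kidneys (difference 2.74, SE 0.31, adjusted p = 8.92e-05). Hspa1a, the inducible HSP70, read 9.50, 9.47, 10.06, 10.37 and 10.97 in VHL-KO/AKI kidneys, against 8.31, 8.14 and 7.98 in VHL-KO kidneys (difference 1.93, adjusted p = 0.00593). Hsp90aa1, the stress-inducible HSP90, averaged 11.60 ± 0.23 in VHL-KO/AKI kidneys and 10.61 ± 0.11 in VHL-KO kidneys (difference 0.99, adjusted p = 0.00205). Hspb8, a partner of Bag3, rose by 1.20 (adjusted p = 0.0149), a call lost without VHL-KO 2 (adjusted p = 0.0546).

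Genes of the integrated stress response, in which ATF4 answers amino acid shortage and other stresses, rose in part. Of its 20 genes, 8 rose, 0 fell and 12 missed the threshold (median 0.41), and without VHL-KO 1 the count was 4. Asns, asparagine synthetase, read 11.10, 10.90, 10.25, 10.91 and 10.73 in VHL-KO/AKI kidneys, against 9.23, 9.53 and 9.29 in VHL-KO kidneys (difference 1.43, SE 0.24, adjusted p = 0.00143). Psat1, an enzyme of serine synthesis, averaged 10.17 ± 0.06 in VHL-KO/AKI kidneys and 8.97 ± 0.43 in VHL-KO kidneys (difference 1.20, adjusted p = 0.000161). Chac1, which breaks down glutathione, rose by 1.07 (adjusted p = 0.0206), a call lost without VHL-KO 1 or 3 (adjusted p up to 0.0807). Cebpb, a transcription factor, rose by 1.02 (adjusted p = 0.0139), lost without VHL-KO 3 (adjusted p = 0.0552), and control 3 differed by 0.61. In the unfolded protein response of the endoplasmic reticulum 3 of 12 genes rose and 0 fell (median 0.26), beside 13.6% of all genes called. The co-chaperone Dnajb9 rose by 0.86 (adjusted p = 0.000927) and the transcription factor Xbp1 by 0.59 (adjusted p = 0.00325). Hspa5, the chaperone BiP, rose by 0.77 (adjusted p = 0.0128), lost without VHL-KO 2 (adjusted p = 0.0635).

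The promoters of 4 of these stress genes are shown because several members of each list rose and the DNA motif of the factor known for that list can be looked for in them. Each is the called member with the largest rise whose window held the motif, the window being 250 bases before to 50 bases after the gene's start in RefSeq (GRCm38.p6), printed on the strand of the gene, with matches of the motif on either strand in capitals. The motifs were GAANNTTC for heat shock factor (Hspb1, chr5:135887669-135887968, plus strand), TGATGNAA for ATF4 with a C/EBP partner (Asns, chr6:7693160-7693459, minus strand), TGCNCNC, a loose form, for the metal factor MTF1 (Mt2, chr8:94172368-94172667, plus strand) and TGACNNNGC for NRF2 (Srxn1, chr2:152105274-152105573, plus strand).
Hspb1: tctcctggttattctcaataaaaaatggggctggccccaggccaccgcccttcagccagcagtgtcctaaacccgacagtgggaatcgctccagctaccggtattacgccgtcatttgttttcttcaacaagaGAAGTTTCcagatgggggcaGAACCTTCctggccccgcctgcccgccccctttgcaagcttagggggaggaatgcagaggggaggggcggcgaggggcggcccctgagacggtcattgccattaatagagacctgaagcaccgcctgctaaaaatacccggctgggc
Asns: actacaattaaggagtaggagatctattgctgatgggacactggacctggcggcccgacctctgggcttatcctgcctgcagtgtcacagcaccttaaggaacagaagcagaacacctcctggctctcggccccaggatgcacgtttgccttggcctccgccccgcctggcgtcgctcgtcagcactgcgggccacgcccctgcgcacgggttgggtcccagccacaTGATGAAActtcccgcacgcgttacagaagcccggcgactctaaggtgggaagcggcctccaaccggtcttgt
Mt2: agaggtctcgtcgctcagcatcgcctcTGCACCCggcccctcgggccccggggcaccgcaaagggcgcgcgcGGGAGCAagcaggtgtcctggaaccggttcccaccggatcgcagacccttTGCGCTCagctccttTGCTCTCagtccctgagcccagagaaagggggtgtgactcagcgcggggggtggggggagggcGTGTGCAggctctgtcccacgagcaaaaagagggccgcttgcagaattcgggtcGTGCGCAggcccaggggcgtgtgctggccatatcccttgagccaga
Srxn1: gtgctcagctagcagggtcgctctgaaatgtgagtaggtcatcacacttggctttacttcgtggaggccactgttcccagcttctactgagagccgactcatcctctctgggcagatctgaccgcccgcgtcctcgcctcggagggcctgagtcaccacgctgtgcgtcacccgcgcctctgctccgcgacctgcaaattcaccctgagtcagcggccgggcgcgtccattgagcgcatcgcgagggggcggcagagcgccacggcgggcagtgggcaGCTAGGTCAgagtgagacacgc
Hspb1 held the motif at 2 positions, Asns at 1, Mt2 at 6 (in the loose form) and Srxn1 at 1. Of 15614 promoters of tested genes, 6.8% held GAANNTTC, 3.2% TGATGNAA, 55.1% TGCNCNC and 13.4% TGACNNNGC. Among list members with a promoter sequence the counts were 8 of 10 for heat shock, 4 of 18 for the integrated stress response, 7 of 7 for the metallothionein list and 6 of 16 for NRF2. A match describes the letters only.

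All measured subunits of the proteasome, the machine that degrades tagged proteins, rose. Of 19 genes 19 rose, and none of the 19 overlapped between the groups, with differences from 0.37 to 1.22 and a median of 0.81. Psmd14, the deubiquitinase of the lid, read 11.38, 11.22, 11.09, 11.55 and 11.28 in VHL-KO/AKI kidneys, against 10.13, 9.93 and 10.19 in VHL-KO kidneys (difference 1.22, SE 0.19, adjusted p = 0.000905). Psma7, a subunit of the core ring, averaged 9.10 ± 0.24 in VHL-KO/AKI kidneys and 7.99 ± 0.12 in VHL-KO kidneys (difference 1.11, adjusted p = 0.0027). Psma2 rose by 1.09 (adjusted p = 0.00132) and Psma5 by 1.08 (adjusted p = 0.0112). With any array left out between 15 and 19 were called, the fewest without VHL-KO 1. The list median of control 3 against controls 1 and 2 was 0.17.

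Immediate early genes, transcription factors that answer growth and stress signals within minutes, rose in 8 of 22 members, and 0 fell (median 0.48). Fosl1, an AP-1 subunit, read 8.39, 8.52, 7.84, 9.03 and 9.46 in VHL-KO/AKI kidneys, against 5.73, 6.19 and 6.33 in VHL-KO kidneys (difference 2.56, SE 0.29, adjusted p = 8.69e-05). Egr2, a zinc finger factor, averaged 7.14 ± 0.63 in VHL-KO/AKI kidneys and 5.63 ± 0.11 in VHL-KO kidneys (difference 1.51, adjusted p = 0.00687). Myc, which drives growth genes, read 9.32, 9.37, 9.21, 9.48 and 9.72 in VHL-KO/AKI kidneys, against 8.36, 7.66 and 8.73 in VHL-KO kidneys (difference 1.17, SE 0.20, adjusted p = 0.0018). Atf3, a stress factor, rose by 1.85 (adjusted p = 0.00983), a call lost without VHL-KO 3 (adjusted p = 0.0613). Egr1 rose by 1.58 (adjusted p = 0.00868), a call lost without VHL-KO 2 (adjusted p = 0.0512).

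Among ligands and receptors of the EGF family 0 of 9 rose and 1 fell (median 0.06), beside 13.6% of all genes called. That gene was the receptor Erbb2, which fell by 0.54 (adjusted p = 0.018), lost without VHL-KO 1, 2 or 3 (adjusted p up to 0.0593).

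Part of the cell cycle genes fell. Of 18 cell cycle genes 7 fell and 1 rose (median -0.30). The list mean had a median over arrays of 6.07 in VHL-KO/AKI, 6.45 in VHL-KO and 6.12 in control. The uninjured deleted kidneys thus stood above the controls. In AKI against control 5 of the list rose and 1 fell (median 0.16), beside 28.1% of all genes called in that comparison. Ccna2, a cyclin of S and G2 phase, read 4.91, 4.81, 4.83, 4.77 and 4.69 in VHL-KO/AKI kidneys, against 6.68, 5.37 and 6.44 in VHL-KO kidneys, where VHL-KO 2 stood lowest of the uninjured arrays (difference -1.36, SE 0.22, adjusted p = 0.00112). Mki67, a marker of cycling cells, read 5.31, 5.58, 5.51, 5.11 and 5.41 in VHL-KO/AKI kidneys, against 7.02, 6.28 and 6.30 in VHL-KO kidneys (difference -1.15, adjusted p = 0.000362). Ccnb2, a mitotic cyclin, averaged 5.48 ± 0.07 in VHL-KO/AKI kidneys and 6.47 ± 0.52 in VHL-KO kidneys (difference -0.99, adjusted p = 0.00178). Ccnd1, the cyclin of cell cycle entry, fell by 1.09 (adjusted p = 0.0156), lost without VHL-KO 2 or 3 (adjusted p up to 0.0637). Without VHL-KO 1, 4 genes of the list fell. The gene that rose, chosen after its value was seen, was Pcna, the sliding clamp of DNA replication and repair (0.43, adjusted p = 0.0473), lost without VHL-KO/AKI 1, 2, 4 or 5 or VHL-KO 2 or 3 or AKI 1, 3 or 5 or control 1, 2 or 3 (adjusted p up to 0.177).

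In the p53 list 1 of 13 genes rose and 0 fell (median 0.32), beside 13.6% of all genes called. It was Pmaip1, which encodes the death protein Noxa (0.43, adjusted p = 0.0468), and its call was lost without VHL-KO/AKI 1, 2, 3, 4 or 5 or VHL-KO 1, 2 or 3 or AKI 2 or 3 or control 1, 2 or 3 (adjusted p up to 0.209) or after quantile scaling. In the BCL2 family, which decides on release of cytochrome c, 1 of 10 rose and 1 fell (median -0.01), beside the same share of all genes. Bcl2, which protects cells, averaged 7.67 ± 0.10 in VHL-KO/AKI kidneys and 8.42 ± 0.20 in VHL-KO kidneys (difference -0.75, adjusted p = 0.000739). Bid, which promotes death, averaged 8.40 ± 0.13 in VHL-KO/AKI kidneys and 7.88 ± 0.12 in VHL-KO kidneys (difference 0.52, adjusted p = 0.00677).

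Inflammatory genes were called in both directions. In the IL-6 family list 2 of 13 rose and 1 fell (median 0.26), and 4 rose and 0 fell once array medians were set equal. Stat3, the transcription factor of this pathway, averaged 10.16 ± 0.33 in VHL-KO/AKI kidneys and 9.47 ± 0.15 in VHL-KO kidneys (difference 0.69, adjusted p = 0.00575). Its feedback inhibitor Socs3 rose by 1.02 (adjusted p = 0.0116), lost without VHL-KO 2 (adjusted p = 0.0567). The receptor Lifr fell by 0.45 (adjusted p = 0.0338), lost without VHL-KO/AKI 1, 2, 4 or 5 or VHL-KO 1, 2 or 3 (adjusted p up to 0.127) or under any of the 3 rescalings. Of 15 chemokines 1 rose and 1 fell (median -0.03, and 0.05 once array medians were set equal), a share near the 13.6% of all genes called. Cxcl1, which draws neutrophils, rose by 0.70 (adjusted p = 0.0287), lost without VHL-KO/AKI 4 or 5 or VHL-KO 1, 2 or 3 (adjusted p up to 0.0837). Ccl5, which draws lymphocytes, fell by 1.07 (adjusted p = 0.0162), lost without VHL-KO 1 (adjusted p = 0.0843).

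Of 13 complement genes 0 rose and 3 fell (median -0.14, but 0.16 without VHL-KO 1), beside 13.6% of all genes called and 8.91% called lower. Cfi, the protease that inactivates C3b, read 5.66, 6.01, 5.53, 5.47 and 5.5 in VHL-KO/AKI kidneys, against 7.39, 7.57 and 7.61 in VHL-KO kidneys (difference -1.89, SE 0.17, adjusted p = 1.91e-05). C2, a protease of the classical pathway, fell by 0.76 (adjusted p = 0.0214), lost without VHL-KO 1, 2 or 3 (adjusted p up to 0.0885). Cfb, its counterpart in the alternative pathway, fell by 0.67 (adjusted p = 0.0282), lost without VHL-KO/AKI 2, 4 or 5 or VHL-KO 2 or 3 (adjusted p up to 0.119) or once array medians were set equal.

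All 11 interferon-stimulated genes had negative differences (median -0.93), and 2 of the 11 passed. Over all genes 13.6% were called, and 8.91% were called lower. Rsad2, an antiviral enzyme, read 8.02, 7.66, 7.55, 7.97 and 7.75 in VHL-KO/AKI kidneys, against 9.71, 8.95 and 9.68 in VHL-KO kidneys (difference -1.66, SE 0.34, adjusted p = 0.00532). Usp18, which restrains interferon signalling, read 7.0, 6.53, 6.70, 6.94 and 6.32 in VHL-KO/AKI kidneys, against 8.90, 7.23 and 8.20 in VHL-KO kidneys. Its fall (-1.41, adjusted p = 0.0263) was lost without VHL-KO/AKI 2 or 5 or VHL-KO 1 or 3 (adjusted p up to 0.149). VHL-KO 1 was the highest uninjured array for both genes, and the list mean relative to the VHL-KO mean was 0.62, -0.46 and -0.16 in VHL-KO 1 to 3.

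Transport genes fell in every segment list of the nephron. Of 28 proximal tubule transport genes 0 rose and 12 fell (median -0.77), and without VHL-KO 2 the count was 4. Slc22a8, which takes up organic anions from blood, read 11.65, 11.33, 11.84, 11.35 and 10.83 in VHL-KO/AKI kidneys, against 12.47, 12.80 and 12.73 in VHL-KO kidneys (difference -1.27, SE 0.27, adjusted p = 0.00573). Slc5a12, a lactate carrier, read 10.89, 10.25, 10.75, 10.12 and 9.38 in VHL-KO/AKI kidneys, against 11.96, 11.98 and 12.18 in VHL-KO kidneys and was lowest in array 5. Its fall (-1.76, adjusted p = 0.0199) was lost without VHL-KO 1, 2 or 3 (adjusted p up to 0.0738). The phosphate carrier Slc34a3 fell by 1.63 (adjusted p = 0.0208), lost without VHL-KO 1, 2 or 3 (adjusted p up to 0.0754). The amino acid carrier Slc7a7 fell by 1.18 (adjusted p = 0.033), lost without VHL-KO/AKI 4 or 5 or VHL-KO 1, 2 or 3 (adjusted p up to 0.125).

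In the thick ascending limb 0 of 9 genes rose and 3 fell (median -1.03). Bsnd, the barttin subunit of chloride channels, read 8.27, 7.93, 8.27, 7.56 and 6.56 in VHL-KO/AKI kidneys, against 9.33, 9.20 and 8.99 in VHL-KO kidneys (difference -1.45, SE 0.30, adjusted p = 0.00505). Kcnj1, the potassium channel ROMK, averaged 10.34 ± 0.50 in VHL-KO/AKI kidneys and 11.37 ± 0.11 in VHL-KO kidneys (difference -1.03, adjusted p = 0.00931). Ptger3, a prostaglandin E2 receptor, averaged 7.64 ± 0.45 in VHL-KO/AKI kidneys and 8.66 ± 0.29 in VHL-KO kidneys (difference -1.03, adjusted p = 0.00722). The list mean relative to VHL-KO was -0.42, -0.81, -0.47, -0.93 and -1.76 in VHL-KO/AKI 1 to 5.

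The distal convoluted and connecting tubule had most of its genes lower, with 0 of 11 genes higher and 9 lower (median -0.82). Pvalb, a calcium buffer of the early distal convoluted tubule, read 7.32, 6.25, 7.31, 5.72 and 5.55 in VHL-KO/AKI kidneys, against 9.20, 9.03 and 9.18 in VHL-KO kidneys (difference -2.70, SE 0.54, adjusted p = 0.00431). Slc8a1, a sodium-calcium exchanger, read 8.70, 7.94, 8.38, 8.30 and 7.08 in VHL-KO/AKI kidneys, against 10.63, 9.97 and 10.11 in VHL-KO kidneys (difference -2.15, SE 0.39, adjusted p = 0.00237). Trpm6, a magnesium channel, averaged 6.5 ± 0.25 in VHL-KO/AKI kidneys and 7.90 ± 0.32 in VHL-KO kidneys (difference -1.40, adjusted p = 0.000395). Kl, the FGF23 co-receptor klotho, fell by 1.24 (adjusted p = 0.0272), lost without VHL-KO/AKI 2, 4 or 5 or VHL-KO 1, 2 or 3 (adjusted p up to 0.0863). Between 7 and 9 of the list fell with any array left out.

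In the collecting duct both cell types had lower genes. Of 13 intercalated cell genes, which secrete acid or base, 0 rose and 7 fell (median -0.67), with 4 falling without VHL-KO 3. Slc4a1, the anion exchanger AE1 that red cells also carry, read 7.28, 6.83, 7.14, 6.53 and 5.93 in VHL-KO/AKI kidneys, against 8.83, 9.16 and 9.09 in VHL-KO kidneys (difference -2.28, SE 0.27, adjusted p = 0.000137). Foxi1, the transcription factor of these cells, averaged 8.21 ± 0.07 in VHL-KO/AKI kidneys and 8.87 ± 0.24 in VHL-KO kidneys (difference -0.66, adjusted p = 0.0016), and the carbonic anhydrase Car2 fell by 0.67 (adjusted p = 0.00232). Rhbg, an ammonia carrier, fell by 1.22 (adjusted p = 0.0184), lost without VHL-KO 2 or 3 (adjusted p up to 0.0679).

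Of 10 principal cell genes 0 rose and 3 fell (median -0.37). Aqp4, a water channel, averaged 7.91 ± 0.29 in VHL-KO/AKI kidneys and 9.16 ± 0.30 in VHL-KO kidneys (difference -1.24, adjusted p = 0.00196), and control 3 differed by -0.75. The sodium channel subunit Scnn1g fell by 0.57 (adjusted p = 0.0218), lost without VHL-KO 1 or 3 (adjusted p up to 0.102). Its partner Scnn1b fell by 0.38 (adjusted p = 0.024), lost without VHL-KO 3 (adjusted p = 0.142) or once array medians were set equal. Of 9 osmotic and urea transport genes 1 rose and 1 fell (median -0.22), beside 13.6% of all genes called. Smpdl3b, a phosphodiesterase of the membrane, averaged 7.5 ± 0.26 in VHL-KO/AKI kidneys and 6.09 ± 0.10 in VHL-KO kidneys (difference 1.40, adjusted p = 0.00305). The urea carrier Slc14a1 fell by 0.55 (adjusted p = 0.0249), lost without VHL-KO/AKI 5 or VHL-KO 1 (adjusted p up to 0.145) or under any of the 3 rescalings, and each rescaling left 0 of this list lower.

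**Figure D3:**
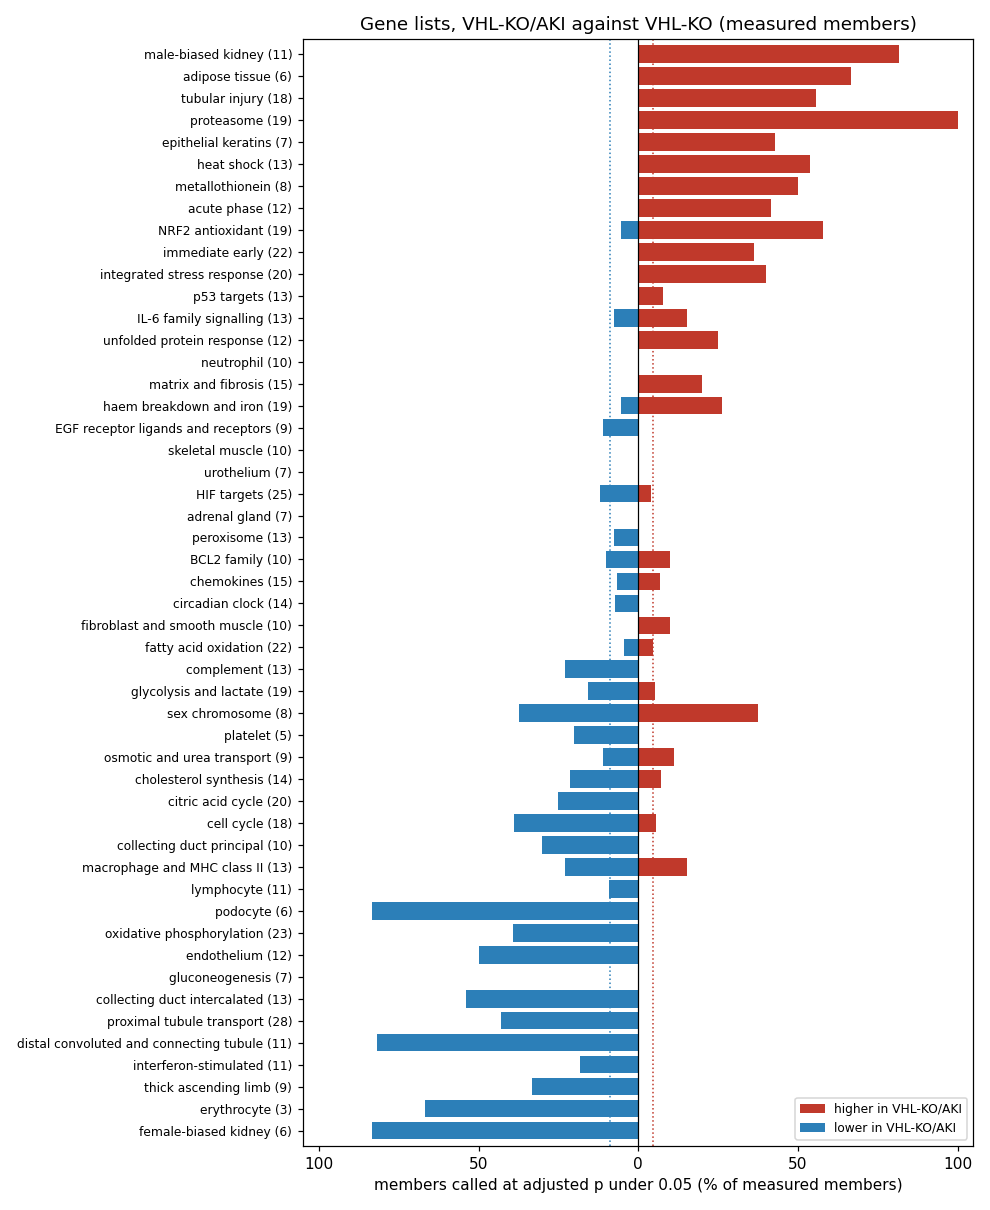
Share of the measured members of each of 50 gene lists that were called higher (red, to the right) or lower (blue, to the left) in VHL-KO/AKI than in VHL-KO, in % of measured members, with lists ordered by their median difference and member numbers in brackets. Dotted lines mark the shares over all genes, 4.66% higher and 8.91% lower; the proteasome list reaches 19 of 19 higher.

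The HIF targets were called at a share near that of all genes. Relative to the VHL-KO mean their list mean was -0.85, -0.86 and -0.86 in controls 1 to 3, so it already stood higher in the uninjured deleted kidneys. Of its 25 genes, 1 rose and 3 fell after glycerol, beside 13.6% of all genes called, and 2 rose and 1 fell once array medians were set equal. The list had a median difference of 0.04 that was -0.03 with array weights and -0.11 with replicate number as a block. Car9, a carbonic anhydrase and classical HIF target, read 9.67, 8.69, 9.18, 8.74 and 8.0 in VHL-KO/AKI kidneys, against 7.08, 6.66 and 7.21 in VHL-KO kidneys, and every injured array stood above every uninjured array (difference 1.87, SE 0.35, adjusted p = 0.00264). Control 3 differed from controls 1 and 2 by 1.08 for Car9. P4ha1, which hydroxylates collagen, averaged 9.46 ± 0.22 in VHL-KO/AKI kidneys and 10.22 ± 0.13 in VHL-KO kidneys (difference -0.75, adjusted p = 0.00145). Car12 fell by 1.11 (adjusted p = 0.0374), lost without VHL-KO/AKI 2, 4 or 5 or VHL-KO 1, 2 or 3 (adjusted p up to 0.124) or once array medians were set equal, and the HIF hydroxylase Egln1 fell by 0.31 (adjusted p = 0.0291), lost without VHL-KO/AKI 2 or 4 or VHL-KO 1, 2 or 3 (adjusted p up to 0.0948) or once array medians were set equal.

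Of 19 glycolysis and lactate genes 1 rose and 3 fell (median -0.14), beside 13.6% of all genes called. Aldoc, an aldolase, read 9.04, 8.54, 8.95, 8.40 and 8.36 in VHL-KO/AKI kidneys, against 9.87, 10.02 and 9.94 in VHL-KO kidneys. It fell by 1.29 (adjusted p = 0.0146), lost without VHL-KO 2 or 3 (adjusted p up to 0.0546). Pfkl, the liver phosphofructokinase, fell by 0.73 (adjusted p = 0.0219), lost without VHL-KO/AKI 4 or VHL-KO 1, 2 or 3 (adjusted p up to 0.0932). The lactate dehydrogenase subunit Ldhb fell by 0.39 (adjusted p = 0.0497), lost without VHL-KO/AKI 1, 2, 3, 4 or 5 or VHL-KO 1, 2 or 3 or AKI 1, 3 or 5 or control 1, 2 or 3 (adjusted p up to 0.171) or once array medians were set equal or after quantile scaling. The lactate exporter Slc16a3 rose by 0.81 (adjusted p = 0.0318), lost without VHL-KO/AKI 1, 4 or 5 or VHL-KO 1, 2 or 3 (adjusted p up to 0.154). Without VHL-KO 2, 0 glycolysis genes fell, and for Pfkl control 3 differed by -0.50. Of 7 gluconeogenesis genes 0 were called, though all 7 differences were negative (median -0.57). Fbp1, a key phosphatase of the pathway, read 12.79, 12.58, 12.88, 12.47 and 12.53 in VHL-KO/AKI kidneys, against 13.18, 13.19 and 13.29 in VHL-KO kidneys without overlap and missed the threshold (difference -0.57, adjusted p = 0.0544), and Pck2 differed by -0.23 (adjusted p = 0.121).

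Mitochondrial genes had lower values as deposited. All 20 citric acid cycle genes had negative differences (median -0.27), of which 5 passed. Sdhc, a membrane subunit of succinate dehydrogenase, read 10.96, 10.65, 10.96, 10.78 and 10.64 in VHL-KO/AKI kidneys, against 11.32, 11.36 and 11.54 in VHL-KO kidneys (difference -0.61, SE 0.13, adjusted p = 0.00561). Idh2, the mitochondrial NADP isocitrate dehydrogenase, averaged 9.81 ± 0.18 in VHL-KO/AKI kidneys and 10.79 ± 0.13 in VHL-KO kidneys (difference -0.98, adjusted p = 0.0179) and lost its call without VHL-KO 1 or 3 (adjusted p up to 0.0769). Sdhb fell by 0.58 (adjusted p = 0.0155), lost without VHL-KO 3 (adjusted p = 0.0885), and Sdha fell by 0.55 (adjusted p = 0.0193), lost without VHL-KO 2 or 3 (adjusted p up to 0.081). Without VHL-KO 3, 1 gene of the list fell. The fifth call, chosen after its value was seen, was the isocitrate dehydrogenase subunit Idh3b (-0.45, adjusted p = 0.0311), lost without VHL-KO/AKI 2, 4 or 5 or VHL-KO 1, 2 or 3 (adjusted p up to 0.111) or once array medians were set equal.

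All 23 oxidative phosphorylation genes had negative differences (median -0.40), and 9 fell. Ppargc1a, the coactivator that drives mitochondrial biogenesis, read 10.36, 10.07, 10.22, 9.89 and 9.42 in VHL-KO/AKI kidneys, against 10.87, 10.95 and 11.09 in VHL-KO kidneys (difference -0.98, SE 0.21, adjusted p = 0.00719). The complex I subunits Ndufs1 and Ndufs3 fell by 0.61 and 0.55 (adjusted p = 0.0212 and 0.0274). Ndufs1 was lost without VHL-KO 1 or 3 (adjusted p up to 0.0884), and Ndufs3 without VHL-KO/AKI 2, 4 or 5 or VHL-KO 2 or 3 (adjusted p up to 0.13) or once array medians were set equal. Atp5o, a stalk subunit of ATP synthase, fell by 0.49 (adjusted p = 0.0321), lost without VHL-KO/AKI 2, 4 or 5 or VHL-KO 2 or 3 (adjusted p up to 0.183) or once array medians were set equal. The number that fell was 3 once array medians were set equal, 20 with array weights and 2 without VHL-KO 3.

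Fatty acid oxidation is the main fuel supply of the proximal tubule. Of its 22 genes 1 rose and 1 fell (median -0.07, and 0.00 once array medians were set equal). Over all genes 13.6% were called, the share beside which the list counts of this paragraph stand. Acaa2, a thiolase, fell by 0.94 (adjusted p = 0.0337), lost without VHL-KO/AKI 1, 2, 4 or 5 or VHL-KO 1, 2 or 3 (adjusted p up to 0.127) or once array medians were set equal. Cpt2, a carnitine acyltransferase, rose by 0.57 (adjusted p = 0.0351) with overlapping groups, lost without VHL-KO/AKI 3, 4 or 5 or VHL-KO 1 or 2 (adjusted p up to 0.164). Of 13 peroxisome genes 1 fell (median -0.01), the import factor Pex6, which averaged 7.28 ± 0.11 in VHL-KO/AKI kidneys and 7.80 ± 0.20 in VHL-KO kidneys (difference -0.53, adjusted p = 0.000925). Of 14 cholesterol synthesis genes 1 rose and 3 fell (median -0.24). Cyp51, a demethylase of the pathway, read 8.94, 8.15, 8.48, 7.98 and 8.11 in VHL-KO/AKI kidneys, against 10.35, 10.26 and 10.00 in VHL-KO kidneys (difference -1.87, SE 0.28, adjusted p = 0.000727), and Srebf2, its main transcription factor, averaged 8.28 ± 0.09 in VHL-KO/AKI kidneys and 8.89 ± 0.13 in VHL-KO kidneys (difference -0.62, adjusted p = 0.000109). Msmo1, a sterol oxidase, rose by 0.76 (adjusted p = 0.0468), lost without VHL-KO/AKI 1, 2, 4 or 5 or VHL-KO 1, 2 or 3 or AKI 1, 2 or 3 or control 1, 2 or 3 (adjusted p up to 0.158). Lss, lanosterol synthase, fell by 0.33 (adjusted p = 0.0357), lost without VHL-KO/AKI 2, 3, 4 or 5 or VHL-KO 2 or 3 (adjusted p up to 0.196) or under any of the 3 rescalings. In the circadian clock 1 of 14 genes fell (median -0.05, and 0.03 once array medians were set equal), the repressor Nr1d1 (-0.68, adjusted p = 0.00723).

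Of 15 matrix genes 3 rose and 0 fell (median 0.23), beside 13.6% of all genes called. Ccn1, a matrix protein that answers injury, read 8.79, 9.16, 9.01, 9.30 and 9.87 in VHL-KO/AKI kidneys, against 8.0, 7.77 and 7.90 in VHL-KO kidneys (difference 1.34, SE 0.20, adjusted p = 0.000573). Adamts1, a matrix protease, rose by 0.75 (adjusted p = 0.024), lost without VHL-KO/AKI 4 or VHL-KO 1 or 3 (adjusted p up to 0.0948). Postn, periostin, rose by 0.55 (adjusted p = 0.0307), lost without VHL-KO/AKI 2 or 4 or VHL-KO 2 or 3 (adjusted p up to 0.147).

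Markers of cells outside the tubule, which keep Vhl, also differed. Of 12 endothelial genes 0 rose and 6 fell (median -0.41). Kdr, the main VEGF receptor, read 8.68, 8.44, 8.55, 8.31 and 8.24 in VHL-KO/AKI kidneys, against 9.31, 9.48 and 9.48 in VHL-KO kidneys (difference -0.98, SE 0.12, adjusted p = 0.000148). Tie1, Egfl7 and Robo4, further endothelial genes, fell by 0.82, 0.53 and 0.52 (adjusted p = 0.000894, 0.00627 and 0.00181). Between 4 and 7 fell with any array left out. The mean of this list lay between 8.61 and 8.72 in VHL-KO/AKI and between 8.98 and 9.25 in VHL-KO. In control kidneys it lay between 8.57 and 8.66, so the uninjured deleted kidneys stood above the controls. The list median of AKI against control was -0.01.

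Podocyte genes fell in 5 of 6 members (median -0.40), and in 3 without VHL-KO 1 or under any of the 3 rescalings. Ptpro, a podocyte phosphatase, averaged 5.75 ± 0.11 in VHL-KO/AKI kidneys and 6.58 ± 0.06 in VHL-KO kidneys (difference -0.82, SE 0.12, adjusted p = 0.0004), and Podxl, the podocalyxin of the foot processes, fell by 0.50 (adjusted p = 0.00727). The slit diaphragm gene Nphs1 fell by 0.41 (adjusted p = 0.0428), lost without VHL-KO/AKI 1, 2, 3 or 4 or VHL-KO 1 or 3 or AKI 3 or 5 or control 1, 2 or 3 (adjusted p up to 0.207) or under any of the 3 rescalings. Cdkn1c, a cell cycle inhibitor of mature podocytes, fell by 0.39 (adjusted p = 0.0296), lost without VHL-KO/AKI 2 or 5 or VHL-KO 1, 2 or 3 (adjusted p up to 0.106) or under any of the 3 rescalings, and control 3 differed by -0.44. The podocyte transcription factor Wt1, chosen after its value was seen, fell by 0.33 (adjusted p = 0.00853). Of 10 fibroblast and smooth muscle genes 1 rose (median -0.06, and 0.02 once array medians were set equal), beside 13.6% of all genes called. It was Dcn, decorin (0.53, adjusted p = 0.0372), and it was lost without VHL-KO/AKI 2, 3 or 5 or VHL-KO 2 or 3 (adjusted p up to 0.181).

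Myeloid genes were called in both directions. Of 13 macrophage and MHC class II genes 2 rose and 3 fell (median -0.39). Cd68, a lysosomal protein of macrophages, read 8.53, 8.97, 8.56, 9.28 and 9.20 in VHL-KO/AKI kidneys, against 7.44, 7.02 and 6.71 in VHL-KO kidneys (difference 1.85, SE 0.42, adjusted p = 0.00866). Cd14, the lipopolysaccharide co-receptor, averaged 8.07 ± 0.76 in VHL-KO/AKI kidneys and 6.35 ± 0.37 in VHL-KO kidneys (difference 1.73, adjusted p = 0.00261). H2-Eb1, an MHC class II chain, read 9.16, 8.98, 8.99, 8.56 and 8.15 in VHL-KO/AKI kidneys, against 10.89, 10.24 and 10.06 in VHL-KO kidneys (difference -1.63, SE 0.31, adjusted p = 0.00295). H2-Aa, a chain of another class II pair, fell by 1.63 (adjusted p = 0.0212), lost without VHL-KO 1 or 2 (adjusted p up to 0.0981). Csf1r, the growth factor receptor of macrophages, was chosen after its value was seen and fell by 0.70 (adjusted p = 0.00687).

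Of 10 neutrophil genes 0 were called (median 0.26). Retnlg, a granule protein of neutrophils, read 5.39, 5.62, 5.26, 7.13 and 7.87 in VHL-KO/AKI kidneys, against 4.91, 5.14 and 5.30 in VHL-KO kidneys, high in arrays 4 and 5 alone (difference 1.14, adjusted p = 0.176). Mmp9, a gelatinase of neutrophil granules, differed by 0.31 (adjusted p = 0.228). Of 11 lymphocyte genes 1 fell (median -0.40), beside 13.6% of all genes called. Nkg7, a protein of cytotoxic cells, read 4.80, 4.74, 5.09, 4.68 and 4.59 in VHL-KO/AKI kidneys, against 6.91, 5.33 and 5.49 in VHL-KO kidneys, where VHL-KO 1 stood above the rest, and its fall (-1.13, adjusted p = 0.0155) was lost without VHL-KO 1 (adjusted p = 0.0559). The lymphocyte list mean relative to the VHL-KO mean was 0.51, -0.25 and -0.26 in VHL-KO 1 to 3.

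Red cell genes were lower and fat cell genes higher. Of 3 measured erythrocyte genes 2 fell (median -1.99). Beside Slc4a1, Alas2, which starts haem synthesis in red cell precursors, read 8.02, 8.06, 7.25, 8.11 and 8.08 in VHL-KO/AKI kidneys, against 9.98, 9.59 and 10.12 in VHL-KO kidneys (difference -1.99, SE 0.24, adjusted p = 0.000138). In control kidneys Alas2 averaged 7.79, near its mean of 7.91 in VHL-KO/AKI and below its mean of 9.90 in VHL-KO. Slc4a1 averaged 8.43 in control kidneys, above its mean of 6.74 in VHL-KO/AKI. Of 5 platelet genes 1 fell (median -0.19), beside 13.6% of all genes called. It was the chemokine Ppbp, at 7.39, 7.5, 6.23, 7.20 and 6.71 in VHL-KO/AKI kidneys, against 8.12, 8.95 and 9.08 in VHL-KO kidneys (difference -1.71, SE 0.34, adjusted p = 0.00408). Ppbp averaged 6.49 in control kidneys, below its means in VHL-KO/AKI (7.01) and VHL-KO (8.72). Of 6 adipose genes 4 rose and 0 fell (median 1.77). Cidec, a lipid droplet protein, read 7.91, 9.60, 9.55, 9.56 and 10.07 in VHL-KO/AKI kidneys, against 5.72, 6.07 and 6.54 in VHL-KO kidneys (difference 3.23, SE 0.42, adjusted p = 0.000238). Adiponectin, Adipoq, read 7.35, 9.09, 9.0, 8.52 and 8.60 in VHL-KO/AKI kidneys, against 5.66, 5.72 and 6.35 in VHL-KO kidneys (difference 2.60, adjusted p = 0.00196).

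Retn, another adipocyte hormone, averaged 9.06 ± 0.71 in VHL-KO/AKI kidneys and 6.77 ± 0.16 in VHL-KO kidneys (difference 2.29, adjusted p = 0.00385), and the droplet coat Plin1 averaged 6.97 ± 0.49 in VHL-KO/AKI kidneys and 5.71 ± 0.13 in VHL-KO kidneys (difference 1.26, adjusted p = 0.00498). The adipose list mean lay between 6.65 and 8.08 in VHL-KO/AKI, lowest in array 1, and between 5.77 and 6.38 in VHL-KO. How much fat tissue came with each piece was not tested. Genes of adrenal gland (0 of 7 called, median 0.02), skeletal muscle (0 of 10, median 0.05) and urothelium (0 of 7, median 0.05) were not called. Their examples were Mc2r (0.21, adjusted p = 0.303), Cyp11b2 (0.12, adjusted p = 0.513), Acta1 (0.34, adjusted p = 0.0621), Myh4 (0.13, adjusted p = 0.217), Krt13 (0.19, adjusted p = 0.0501) and Krt5 (0.68, adjusted p = 0.147).

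The 2 lists of sex-biased kidney genes had the largest medians. Of 11 genes known as male-biased in mouse kidney 9 rose and 0 fell (median 3.49), and the list median of control 3 against controls 1 and 2 was 3.98. Acsm3, a medium-chain acyl-CoA synthetase, read 11.73, 11.40, 11.68, 11.53 and 10.93 in VHL-KO/AKI kidneys, against 4.97, 5.00 and 5.15 in VHL-KO kidneys (difference 6.42, adjusted p = 0.000618), and control 3 differed by 5.83. The cytochrome P450 gene Cyp2j13 rose by 5.04, the amino acid carrier Slc7a13 by 4.91 and the organic anion carrier Slco1a1 by 4.15 (adjusted p = 0.00372, 0.00784 and 0.00576), and control 3 differed by 6.0, 6.23 and 5.08. Of 6 female-biased genes 0 rose and 5 fell (median -2.99, and -0.71 for control 3). Slc7a12, an amino acid carrier, read 7.89, 7.82, 8.45, 7.54 and 6.23 in VHL-KO/AKI kidneys, against 13.20, 13.10 and 12.98 in VHL-KO kidneys (difference -5.51, adjusted p = 3.49e-05).

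The exporter Abcc3, the hydroxyacid oxidase Hao2 and the progesterone reductase Akr1c18, further female-biased genes, fell by 3.35, 3.55 and 2.63 (adjusted p = 5.24e-06, 0.00174 and 0.000202). The anion carrier Slc22a7, chosen after its value was seen, fell by 2.29 (adjusted p = 0.000659). On the Y chromosome 3 of 9 measured genes were called, all higher: Uty by 4.38, Eif2s3y by 3.67 and Kdm5d by 1.59 (adjusted p = 0.000218, 0.000278 and 0.000137). On the X chromosome 78 of 739 were called (10.6%), against 13.6% of all genes, and Xist fell by 7.02 (adjusted p = 1.81e-11). The X-linked partners of Y genes Kdm6a and Eif2s3x, chosen after their values were seen, fell by 0.68 and 0.36 (adjusted p = 0.00033 and 0.0325), the call of Eif2s3x being lost without VHL-KO/AKI 3 or 5 or VHL-KO 1, 2 or 3 (adjusted p up to 0.121) or once array medians were set equal or after quantile scaling.

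**Figure D4:**
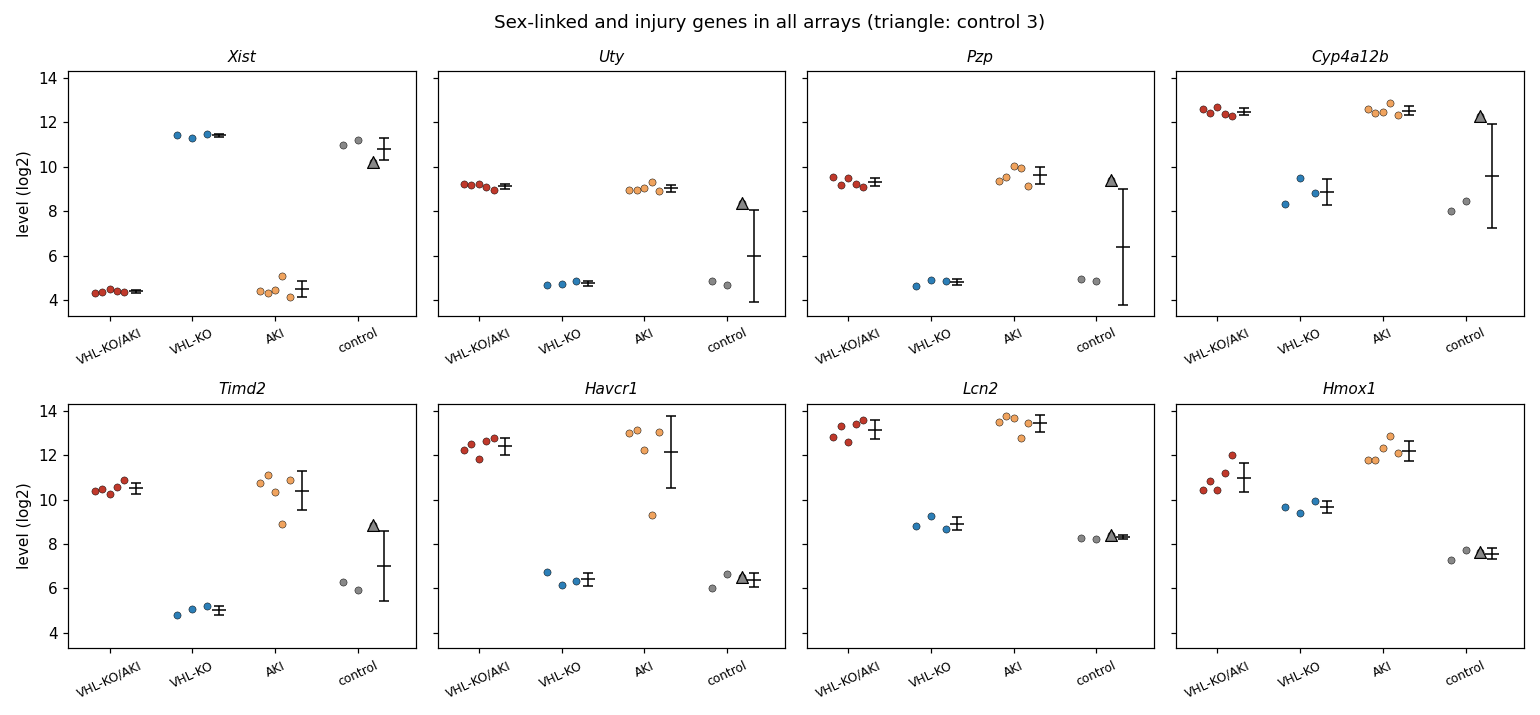
Levels (log2, y axis) of 8 genes in all 16 arrays: VHL-KO/AKI (red), VHL-KO (blue), AKI (orange) and control (grey), with group means and SD and control 3 as a triangle. Control 3 lies with the injured arrays for Uty, Pzp and Cyp4a12b, between the groups for Timd2, and with the other controls for Havcr1, Lcn2 and Hmox1.

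The same injury was also compared without Vhl deletion, with the same sex-linked split. Xist read between 4.16 and 5.08 in AKI and between 10.23 and 11.19 in control, and the Y-linked mean lay between 7.83 and 8.26 in AKI and between 4.96 and 7.43 in control. Sex-linked signal thus divided both comparisons alike apart from control 3, and its part in the recurrence of calls was not tested. The comparison of AKI with control, which shares no array with the main one, called 5600 genes (28.1%), 2632 higher and 2968 lower. Of the 2705 genes called in deleted kidneys 1994 were called there with the same sign, which is 73.7% of the 2705 and 35.6% of the 5600. Another 6 were called with the opposite sign and 705 were not called. Across all genes, which are not independent replicates, the differences correlated with Pearson's r of 0.82. Among the 2705 the median ratio of the deleted to the intact difference was 0.942. These genes were selected by their call in deleted kidneys, which favours large differences there. The ratio therefore does not describe the relative size of both responses over all genes.

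The list medians of both comparisons can be set side by side. Each of the 22 immediate early genes had a smaller difference in deleted kidneys in absolute size (median 0.48 in deleted, 1.60 in intact kidneys, where 20 rose). Each of the 28 proximal tubule genes had a smaller difference in deleted kidneys in absolute size (median -0.77 in deleted, -1.25 in intact, where 23 fell), and likewise the 9 thick limb genes (-1.03 in deleted, -1.88 in intact). The proteasome median was 0.81 in deleted and 0.86 in intact kidneys. Other lists went the other way. The endothelial median was -0.41 in deleted and -0.01 in intact kidneys, and 3 of 12 genes had a smaller difference in deleted kidneys. The interferon-stimulated median was -0.93 in deleted and -0.64 in intact kidneys, with 4 of 11 smaller in deleted kidneys. That list's mean varied among uninjured arrays, at 6.895, 8.267 and 7.352 in controls 1 to 3 and 8.353, 7.266 and 7.572 in VHL-KO 1 to 3. Among the 2705 genes called in deleted kidneys, 1371 had a smaller difference of the same sign there than in intact kidneys. The share of smaller differences over all genes was not counted. None of these list differences was tested as a list. The mean of the AKI group includes AKI 4, whose mean correlation with its group was 0.973, against at least 0.988 for the other AKI arrays.

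The test of the difference itself, the interaction, called 2 genes of 19938 (0.01%), both with a smaller rise in deleted kidneys. By the same fit 2387 genes had an unadjusted p under 0.05. Hmox1 read 11.79, 11.76, 12.34, 12.85 and 12.09 in AKI kidneys, against 7.28, 7.75 and 7.66 in control kidneys (difference 4.61), beside a rise of 1.32 in deleted kidneys, and the interaction was -3.29 (SE 0.45, adjusted p = 0.0466). Myc read 9.73, 10.20, 9.66, 9.65 and 10.07 in AKI kidneys, against 6.94, 6.59 and 6.49 in control kidneys (difference 3.19), beside a rise of 1.17 in deleted kidneys, with an interaction of -2.02 (SE 0.29, adjusted p = 0.0466). In both genes the uninjured VHL-KO kidneys already stood above the controls, at 9.67 against 7.56 for Hmox1 and 8.25 against 6.67 for Myc. Over 27 alternative settings the adjusted p of Hmox1 ran from 0.00166 to 0.183 and passed in 13, and that of Myc ran from 0.00173 to 0.183 and passed in 11. Without AKI 4 the interaction called 620 genes, and without VHL-KO/AKI 5 it called 206.

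**Figure D5:**
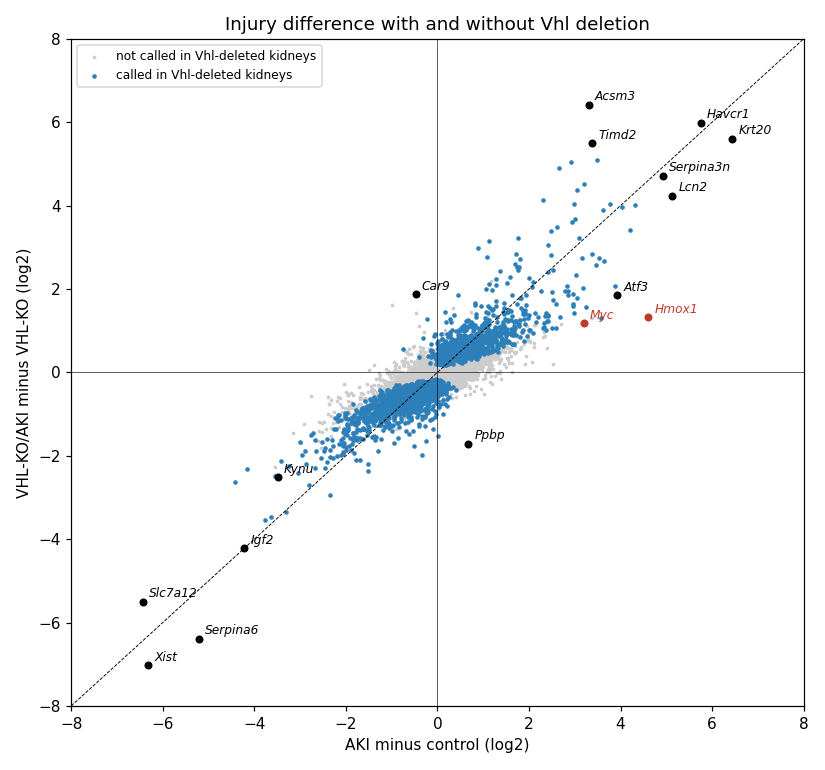
Injury difference in Vhl-deleted kidneys (VHL-KO/AKI minus VHL-KO, log2, y axis) against that in kidneys with intact Vhl (AKI minus control, log2, x axis), 1 point per gene, with genes called in deleted kidneys in blue and the line of equal differences dashed. Hmox1 and Myc (red), the 2 genes of the interaction, lie below the line at 1.32 and 1.17 on the y axis against 4.61 and 3.19 on the x axis.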

How the data were processed

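Kidney RNA of 16 mice was measured on 1 array each. The deposited log2 values were summarised by the authors with RMA in Partek 6.4, per the submitters' processing notes, and the genome build is not given in the sources used here. RMA scales arrays to a shared distribution of probes, which hides a global shift in RNA. Of 35556 rows 21789 carry 1 gene symbol, 1621 several and 12146 none, and 21698 matched RefSeq by Entrez number. Among several rows of a gene that with the greatest mean level was kept, which gave 19938 genes.

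Groups were taken from the sample titles. A group-means model was fitted to all 16 arrays with limma 3.58.1 in R 4.3.3, and the comparisons were VHL-KO/AKI against VHL-KO, AKI against control and their difference, with Benjamini-Hochberg adjustment over 19938 genes. The script was tested on simulated data. Of 703 list members 644 were measured, and lists are described by counts and medians with no test. Named genes were Vhl, the 12 largest rises and 12 largest falls among called genes without overlap, up to 4 called members of each list (the 2 with the smallest p where none was called), the called interaction genes and the 6 called genes with the largest SD in VHL-KO/AKI. From the ranked genes (rises, falls, interaction, SD), predicted or numbered names, vomeronasal and olfactory receptors, genes on chromosome Y, Xist, Tsix and members of the sex lists were left out; sex-linked genes and sex-list members are named with their lists, and 10 genes were added after their values were seen. Members and lists were chosen with earlier results of these data known, so no list is independent support. Alternatives changed the scaling, the filter, the variance model, the row per gene, the arrays in the fit, the replicate block and a sex-linked covariate, and left out each array in turn. No 2 arrays held identical values.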

Additional observations from a re-analysis of the deposited data

Results flagged for a closer look

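In 5 of the 177 named genes 1 of the 5 VHL-KO/AKI arrays stood far from the other 4, where chance alone flags about 1 in 20 groups. The thiolase Acaa2 read 11.45 in VHL-KO/AKI 3, against 10.74 to 10.89 in the other injured deleted arrays. The sterol factor Srebf2 read 8.11 in VHL-KO/AKI 3, against 8.30 to 8.34. Podxl of podocytes read 10.28 in VHL-KO/AKI 1, against 10.12 to 10.15. The red cell enzyme Alas2 read 7.25 in VHL-KO/AKI 3, against 8.02 to 8.11. The lipid droplet gene Cidec read 7.91 in VHL-KO/AKI 1, against 9.55 to 10.07, and the adipose list mean was lowest in the same array. Hmox1 and Myc had smaller injury differences in Vhl-deleted kidneys than in kidneys with Vhl. By the test of the difference in limma the interactions were -3.29 and -2.02 (adjusted p = 0.0466 for both). Over 27 alternative settings Hmox1 passed in 13 and Myc in 11, with adjusted p up to 0.183. Sex-linked signal divided injured from uninjured arrays in both comparisons apart from control 3, and its part was not tested.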

How the results depend on the processing

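The count of 2705 called genes was 4328 with array weights, 3473 in a fit of the 8 compared arrays alone and 447 when at least a 2-fold change was required as well, which left 1094 of the 5600 calls of AKI against control. With 1 array left out it ranged from 1683 to 3910, with the fewest calls without VHL-KO 3 and the most without AKI 4. The interaction called 5 rows when all rows of the table were tested, 1 gene after quantile scaling, 0 with robust variance, 885 with array weights and 22 without control 3 and AKI 4 together, a setting chosen after the data were seen. With 1 array left out the interaction called from 0 to 620 genes. The cause of these shifts was not tested.

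Of the 177 genes named, 166 were called, and 105 of the 166 calls held with any array left out. Leaving out VHL-KO 1, 2 or 3 ended 38, 42 or 45 of them, and leaving out VHL-KO/AKI 1 to 5 ended 9, 19, 7, 24 and 25. Centring on array medians ended 15, quantile scaling 8 and cyclic loess scaling 6, and none of these reversed a named call. With array medians set equal, the genes that rose numbered 5 in the unfolded protein response, 3 in glycolysis and lactate, 2 among p53 targets and 1 each among EGF receptor ligands and receptors, peroxisome, skeletal muscle and urothelium genes, and the number that fell was 0 for fatty acid oxidation. Quantile scaling called 1 gluconeogenesis gene and 2 clock genes lower. Centring moved the list median of EGF receptor ligands and receptors to 0.131 and of adrenal gland genes to 0.100, and quantile scaling moved that of podocytes to -0.308. Without the dimmest genes the medians were 0.645 for IL-6 family signalling, 1.646 for the acute phase and -0.36 for the sex chromosome list. With 1 array left out the list median ranged from -0.271 to -0.048 for the circadian clock, from -0.275 to 0.157 for complement and from 0.026 to 0.132 for skeletal muscle.

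With the replicate number as a block 1923 genes were called, the interaction called 1, the p53 median was 0.169 and 27 of the 166 named calls were lost. The numbers were not shown to pair the mice: deviations of same-numbered VHL-KO/AKI and VHL-KO arrays correlated at 0.028, 0.204 and 0.091. All 3 VHL-KO/AKI arrays that share a number correlated best with their own number, and 2 of the 3 VHL-KO arrays did.

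After the sex-linked level was added as a covariate all 3 comparisons called 0 genes, 359 genes of the main comparison had an unadjusted p under 0.05, and the median SE was 0.509 instead of 0.101. The covariate's coefficient rests mainly on control 3, the array with both signals, so these values carry that array's weight. List medians became epithelial keratins 0.973, EGF receptor ligands and receptors -0.065, haem breakdown and iron -0.018, metallothionein 0.088, immediate early 1.715, integrated stress response 0.634, unfolded protein response -0.051, acute phase 1.682, interferon-stimulated 0.248, p53 targets -0.196, BCL2 family 0.219, HIF targets 0.505, glycolysis and lactate 0.188, gluconeogenesis -0.271, fatty acid oxidation 0.364, citric acid cycle 0.018, oxidative phosphorylation -0.047, proteasome 0.055, circadian clock 0.43, osmotic and urea transport 0.548, proximal tubule transport -0.274, thick ascending limb 0.227, distal convoluted and connecting tubule 0.02, collecting duct principal 0.543, collecting duct intercalated -0.026, podocyte 0.154, endothelium -0.103, macrophage and MHC class II -0.946, erythrocyte -1.399, adipose tissue 4.448, adrenal gland 0.266, skeletal muscle -0.153, urothelium 0.28, sex chromosome -0.894, male-biased kidney -6.633 and female-biased kidney -0.246. Named genes whose sign turned were Timd2 -3.218, Pzp -7.6794, Cyp4a12b -7.4047, Kynu 0.1428, Dio1 1.5109, Blvrb -0.3252, Tfrc -0.1345, C2 0.2297, Car9 -0.9945, Aldoc 0.0132, Pfkl 0.8401, Ldhb 0.3549, Acaa2 0.3054, Idh2 0.2056, Sdhb 0.01, Ndufs3 0.1395, Atp5o 0.0876, Psmd14 -0.1321, Psma5 -0.2082, Slc14a1 0.3964, Kl 0.0201, Aqp4 0.8716, Scnn1b 0.2785, Rhbg 0.1819, Nphs1 0.2331, Cdkn1c 0.9084, Robo4 0.0657, Mmp9 -0.2546, Nkg7 0.0879, Cyp11b2 -0.3825, Acta1 -0.3715, Myh4 -0.5102, Krt5 -0.0069, Uty -5.4587, Eif2s3y -4.8188, Kdm5d -1.5852, Acsm3 -8.9756, Cyp2j13 -11.0427, Slc7a13 -11.0293, Slco1a1 -9.4922, Akr1c18 0.0106, Gsta4 0.7923, Idh3b 0.1062, Wt1 0.0751, Kdm6a 0.4865, Eif2s3x 0.538 and Slc22a7 0.0582.

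The file holds no detection calls, so no gene can be called absent. The number of arrays, 5 against 3, limits the precision.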
